A study of Drosophila melanogaster with 24 samples.

Results

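CP190 peaks called in Isha-depleted Kc167 cells at places without a CP190 peak in mock cells made up 964 of the 8880 knockdown CP190 peaks on the main chromosome arms (percent called 10.9). They were chosen by position: a knockdown peak belonged to them when it shared not even 1 bp with a mock CP190 peak. Kc167 is a female Drosophila melanogaster line of embryonic origin. Per the labels, knockdown cells were nucleofected with 12 µg of dsRNA against Isha and grown for 5 days, and the control cells are called mock with no further detail. Chromatin was precipitated with antisera to Isha, Su(Hw), CP190 and Mod(mdg4)67.2, in 2 replicates per antibody and treatment beside inputs (24 libraries). The Isha replicates differ in their antiserum (Rb95 and Rb96). The deposited data are 8 peak lists, 1 per antibody and treatment, with dm6 positions and no score. Each list stands for both replicates, so no difference between treatments has a replicate check, and a peak called only after knockdown may be one that lay just below the authors' threshold in mock cells. Whether replicates came from separate cultures is not stated. No p-value is given, and intervals are 95% intervals for counting error over peaks, which are not replicates.

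CP190 is a zinc finger and BTB domain protein that does not bind most of its sites alone but is brought to them by DNA-binding insulator proteins. Su(Hw) is one of these, and with Mod(mdg4)67.2 it forms the gypsy insulator complex. Other CP190 sites lie at promoters of active genes, where different DNA-binding factors recruit it. Isha, per the series title, binds the mRNA of su(Hw) and is required for insulator function.

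Most of the CP190 peaks called only after knockdown overlapped neither Mod(mdg4) nor Su(Hw), and they were narrower than CP190 peaks called in both treatments. Mod(mdg4) was at 2 of the 964, 1 in each treatment. A mock Su(Hw) peak lay at 183 of them (19.0%, Wilson interval 16.6 to 21.6%), against 46.7% of the 7916 CP190 peaks called in both treatments. A mock Isha peak lay at 316 (32.8%, 29.9 to 35.8%), against 39.5%. None of the 3 other proteins was called in either treatment at 454 of them (47.1%, 44.0 to 50.3%), against 17.0%, a difference of 30.1 points (Newcombe interval 26.9 to 33.4). At CP190 peaks called only in mock cells that share was 32.0% of 507, a difference of 15.1 points (9.92 to 20.2). By width this last difference was 25.7 points under 750 bp, 7.77 points up to 1.25 kb, and -6.37 points (-21.7 to 9.25) from 1.25 kb. These shares count an overlap of 1 bp. With 50% reciprocal overlap, mock Isha was at 8.82%, mock Su(Hw) at 11.6% and none of the proteins at 74.3% of the new sites, and with midpoints within 250 bp mock Isha was at 10.5%.

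The rule used both CP190 lists, so the width and spacing of the peaks are given as a description. Their widths ran from 288 to 2233 bp with a median of 765.5 bp, and 461 (47.8%) were narrower than 750 bp. The whole knockdown CP190 list was narrower than the mock list, with medians of 1130 and 1410 bp. Peaks called in both treatments had a median knockdown width of 1181 bp, and 9.02% of them were narrower than 750 bp. The 507 CP190 peaks called only in mock cells had a median width of 894 bp in the mock list. Their width classes are therefore on the scale of that wider list. The gap from a knockdown-only peak to the nearest mock CP190 peak had a median of 4108 bp, with quartiles of 1813.5 and 8732 bp. It was under 500 bp for 81 peaks (8.40%) and at least 10000 bp for 216 (22.4%).

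**Figure D1:**
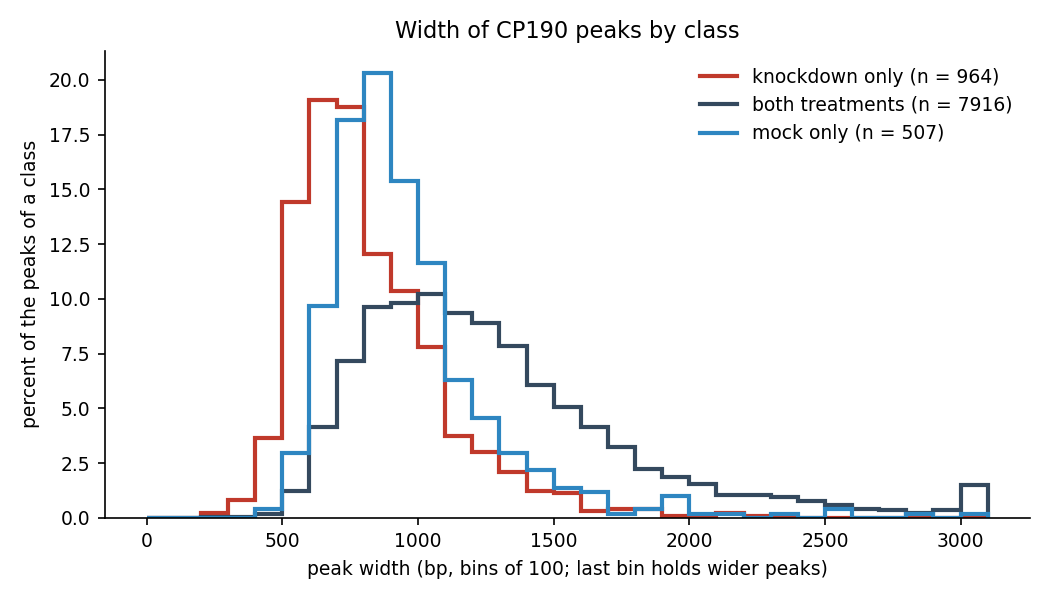
Width of CP190 peaks in bins of 100 bp (x axis) as a percent of the peaks of each class (y axis), for peaks called only after knockdown, in both treatments, and only in mock cells. The class called only after knockdown has the lowest median width, 765.5 bp, against 1181 bp in both treatments and 894 bp in mock cells alone. Widths of the mock-only class come from the mock list (median 1410 bp), the others from the knockdown list (median 1130 bp).

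The edge of the rule was fine. Just outside mock coverage, a knockdown peak inside the Hox gene Dfd (3R, 6796404 to 6797414) lay 2 bp from the mock peak at 6797417 to 6798994. A peak in tei (2R, 13646962 to 13647658) lay 11 bp from a mock peak, and a peak 4844 bp from CG43107 (2R, 17144930 to 17146488) lay 16 bp from one. Just inside it, and so not counted, a knockdown peak next to CG43324 (2R, 17563123 to 17564046) shared 1 bp with a mock peak, and peaks at CG10283 and Acbp2 shared 15 bp each.

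Isha, the depleted protein, was called in mock cells at 316 of the 964 sites and after knockdown at 74 of them. The sites that had lost the Isha call numbered 242 (25.1%), those that held it in both treatments were the remaining 74 (7.68%), and none gained it, which allows a share of up to 0.397% by the Wilson bound. At CP190 peaks of both treatments Isha was gained at 18 of 7916 (0.227%), and the interval of the difference (-0.227 points, -0.359 to 0.178) includes 0. Counted over Isha peaks instead, 4.40% of the 932 knockdown Isha peaks had no mock Isha peak. The share of mock Isha peaks still called was 23.4% at the new sites (19.1 to 28.4%) and 25.2% at CP190 peaks of both treatments. The interval of that difference (-1.81 points, -6.42 to 3.38) includes 0.

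The comparison of Isha shares turned with the width of the CP190 peak. Over all widths the new sites had mock Isha less often than the sites of both treatments, by -6.72 points (-9.81 to -3.51). Among peaks under 750 bp the shares were 17.4% and 18.5%, a difference of -1.13 points (-5.52 to 3.45). From 750 bp to under 1.25 kb they were 45.3% and 42.3%, a difference of 3.09 points (-1.81 to 8.07), and at 1.25 kb and wider 56.2% of 73 and 40.9%, a difference of 15.3 points (3.79 to 26.2). CP190 peaks called only in mock cells had Isha less often than the new ones: 17.0% of 507 over all widths (difference 15.8 points, 11.3 to 20.1) and 15.9% against 45.3% in the middle width class (difference 29.5 points, 23.1 to 35.4). From 1.25 kb the difference was 27.4 points (10.9 to 41.8). Under 750 bp, where 461 of the new sites lie, the shares were 13.1% and 17.4%, and the interval of the difference includes 0 (4.27 points, -4.05 to 10.6).

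Su(Hw), the DNA-binding protein of the gypsy insulator, was sparse at the new CP190 sites in every width class. Its mock peaks were at 23.4% of those under 750 bp against 57.4% of peaks of both treatments, at 15.8% against 39.3% in the middle class, and at 9.59% against 52.5% from 1.25 kb. The differences were -34.0 points (-39.1 to -28.5), -23.5 points (-27.0 to -19.5) and -42.9 points (-48.1 to -33.8). CP190 peaks called only in mock cells had Su(Hw) in 49.9% of cases (45.6 to 54.2%), and the new sites differed from them by -30.9 points (-35.9 to -25.9). Where a new CP190 site had Su(Hw), that protein was usually there before and after: 167 sites held it in both treatments, 16 in mock cells only and 21 after knockdown only. Of the mock Su(Hw) peaks at new CP190 sites, 91.3% were still called after knockdown (86.3 to 94.5%), against 93.7% at CP190 sites of both treatments (difference -2.47 points, -7.51 to 0.926) and 73.1% at CP190 sites of mock cells alone (difference 18.1 points, 11.0 to 24.8). The 21 sites that overlapped a knockdown Su(Hw) peak and no mock one were 2.18% of the 964 (1.43 to 3.31%). At CP190 peaks of both treatments that share was 1.19% (difference 0.991 points, 0.197 to 2.14). Of sites with knockdown Su(Hw), they were 21 of 188, against 94 of 3558 at CP190 peaks of both treatments. Counted over Su(Hw) peaks instead, 4.71% of the whole knockdown list had no mock Su(Hw) peak. That last share is of Su(Hw) peaks and is not a baseline for the 2.18% of CP190 sites.

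Mod(mdg4)67.2, the partner of Su(Hw) in the gypsy complex, had 1 mock and 1 knockdown peak among the 964 sites (0.104% each, 0.0183 to 0.585%), against 15.7% and 13.3% of CP190 peaks of both treatments. Because Mod(mdg4) lies mostly at wide CP190 peaks, the shares were also read by width. Under 750 bp they were 0 of 461 and 1.12% in mock cells, in the middle class 0 of 430 and 6.49%, and from 1.25 kb 1 of 73 and 28.7%. Of CP190 peaks called only in mock cells, 2 of 507 had it in mock cells. In the knockdown Mod(mdg4) list, 10.9% of all peaks had no mock Mod(mdg4) peak, and 1 of these 119 lay at a new CP190 site.

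**Figure D2:**
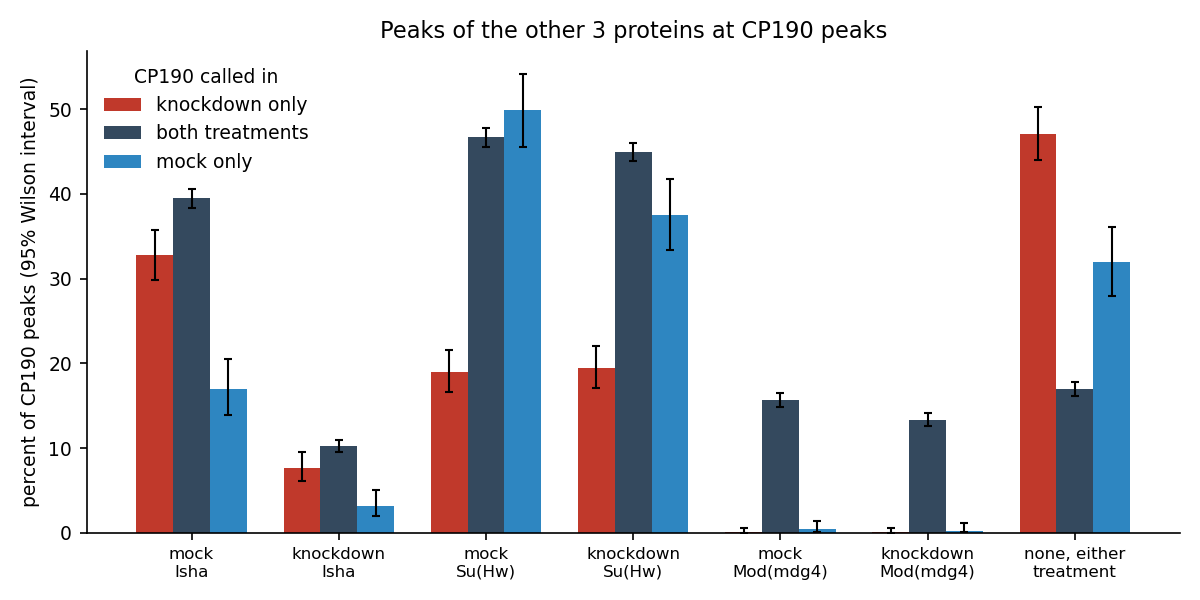
Percent of CP190 peaks (y axis) that overlap a peak of Isha, Su(Hw) or Mod(mdg4) in mock or knockdown cells, or none of them in either (x axis), for CP190 called only after knockdown (n = 964), in both treatments (n = 7916) and only in mock cells (n = 507). Bars are shares and whiskers 95% Wilson intervals; the knockdown-only class has mock Su(Hw) at 19.0% and no other protein at 47.1%.

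**Figure D3:**
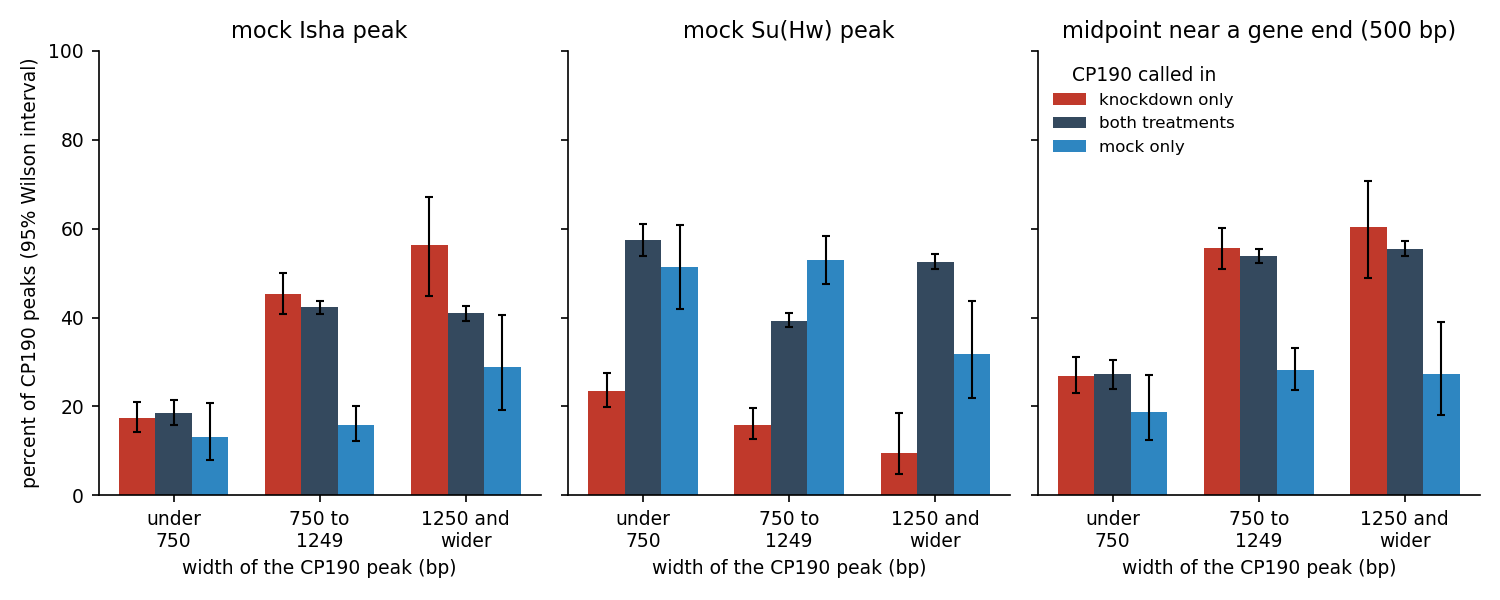
Percent of CP190 peaks (y axis, whiskers 95% Wilson intervals) with a mock Isha peak, a mock Su(Hw) peak, or a midpoint within 500 bp of a gene end, by width of the CP190 peak in bp (x axis). Su(Hw) is below the peaks of both treatments in each width class (23.4, 15.8 and 9.59% for the knockdown-only class), while the Isha share runs from 17.4% to 56.2% with width.

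Read from the side of the other proteins, 1564 mock Isha peaks had no mock CP190 peak, and 270 of them (17.3%, 15.5 to 19.2%) overlapped a new CP190 site. Those with a protein-coding gene end inside 500 bp did so in 33.6% of 541 cases (29.8 to 37.7%), and those farther away in 8.60% of 1023 (7.04 to 10.5%). The peaks near gene ends were wider (medians 1602 and 870 bp). In each of 4 bins of like size by width, a split made after the values were seen, the share near gene ends was the higher one, by 10.1 points (2.01 to 22.6) in the narrowest bin and 19.4 points (9.80 to 28.1) in the widest. Isha peaks that were kept after knockdown had a new CP190 site more often than those that were lost, 38.8% of 160 against 14.8% of 1404 (difference 23.9 points, 16.5 to 31.9). Median widths were 2178.5 bp for kept and 975 bp for lost Isha peaks, and a wider peak overlaps others more easily. In the widest of the same 4 bins 43.8% of 105 kept and 31.1% of 286 lost peaks had a new site (12.7 points, 2.01 to 23.5). In the next bin it was 39.5% of 38 and 18.1% of 353 (21.3 points, 6.80 to 37.6). The narrower bins held 8 and 9 kept Isha peaks, and the intervals of their differences include 0.

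Of the 1111 mock Su(Hw) peaks without mock CP190, 177 (15.9%, 13.9 to 18.2%) overlapped a new CP190 site. The share was 18.0% where Su(Hw) was kept and 7.18% of 209 where it was lost, a difference of 10.8 points (5.85 to 14.6). Here too the kept peaks were the wider ones (medians 1225.5 and 738 bp). In the narrowest bin, with 138 kept and 140 lost peaks, 17.4% and 7.86% had a new site (9.53 points, 1.70 to 17.5). The intervals of the next bins include 0, and the widest held no lost peak.

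Place along genes differed with the partner, at new sites as at other CP190 peaks. Of the 309 new CP190 sites with mock Isha and without mock Su(Hw), 82.2% (77.5 to 86.1%) had their midpoint within 500 bp of a gene end. Of the 176 with mock Su(Hw) and without Isha it was 9.09% (5.67 to 14.3%), with 65.3% inside a protein-coding gene. The same shares were 91.1% and 19.0% at CP190 peaks of both treatments, so the new sites differed from them by -8.95 points (-13.7 to -4.93) and -9.92 points (-13.6 to -4.60). These differences were not split by width, and the new sites were narrower, with medians of 906 and 699 bp against 1171 and 1192 bp. The shares near gene ends were 76.5% and 9.52% at CP190 peaks of mock cells alone. The 472 with neither protein in mock cells lay near gene ends in 28.8% of cases (24.9 to 33.1%), against 51.2% of CP190 peaks of both treatments with neither (difference -22.4 points, -27.1 to -17.4). Their median width was 700.5 bp against 1081 bp. Only 7 new sites had both Isha and Su(Hw) in mock cells. Over all 964 sites, 407 (42.2%, 39.1 to 45.4%) were near a gene end, against 52.1% of sites of both treatments and 26.0% of sites of mock cells alone. Within width classes the interval of the first difference includes 0: the shares were 26.9% and 27.2% under 750 bp (-0.273 points, -5.39 to 4.99), 55.6% and 53.8% in the middle class (1.80 points, -3.18 to 6.70) and 60.3% and 55.5% from 1.25 kb (4.79 points, -6.80 to 15.4). The difference from mock-only sites was 16.2 points (11.1 to 21.0), 27.4 points (20.5 to 33.9) in the middle width class and, from 1.25 kb, that between 60.3% and 27.3% (interval 16.6 to 47.0 points). Under 750 bp it was 8.21 points, with an interval that includes 0 (-1.05 to 15.8). The gene table used has no strand, so starts and ends of genes were not told apart.

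Among the widest new sites, one lay inside EcR, the ecdysone receptor gene (2R, 6144260 to 6146423), and held none of the other proteins. A site in shn, a zinc finger factor gene of Dpp signalling (2R, 11201889 to 11204003), overlapped a pair of mock Isha peaks, and neither was called after knockdown. The nearest mock CP190 peak was 1538 bp from the site in EcR and 7431 bp from the one in shn.

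Sites at ATP8A, a phospholipid flippase gene (2R, 13437575 to 13439448), Syx4, a syntaxin gene (X, 2738365 to 2740192), and FASN2, a fatty acid synthase gene (2L, 3055445 to 3057139), had midpoints 540, 189 and 149 bp from a gene end, and each had Isha in mock cells alone. The site at CG1628 (X, 10601371 to 10603099) and the one inside eIF5B, a translation initiation factor gene (3L, 3447118 to 3448850), also had Isha in mock cells alone, but lay only 337 and 527 bp from a mock CP190 peak. At eIF5B the overlap was with the last bases of a mock Isha peak of 5948 bp.

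Isha remained at some of the new CP190 sites. The widest of these were at CG16985 (3L, 2598955 to 2600708), Hsp60A, which encodes the mitochondrial chaperonin (X, 11107854 to 11109574), e(y)2b (3R, 7093421 to 7094939), Kap3, a kinesin subunit gene (X, 11338928 to 11340418), and CG44040 (3R, 15319697 to 15321151). At all 5 the knockdown Isha peak was narrower than the mock one, for example 816 bp against 1642 bp at Hsp60A and 751 bp against 3120 bp at e(y)2b. Each midpoint lay within 252 bp of a gene end. A further site that kept Isha (X, 22373188 to 22374508) had the wider Isha peak after knockdown, 955 bp against 792 bp. Over the whole Isha lists, median widths were 1676 bp after knockdown and 1535 bp in mock cells.

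Among sites with Su(Hw) in both treatments the widest was in Zw, the gene of glucose-6-phosphate dehydrogenase (X, 19668176 to 19669564). The Su(Hw) peak there spanned 19668152 to 19669528 in mock cells and 19668232 to 19669603 after knockdown, so its edges moved by under 100 bp while CP190 and a Mod(mdg4) peak of 774 bp were called only after knockdown. The other widest sites of this kind lay 403 bp from E(spl)m3-HLH, a Notch target gene (3R, 26020761 to 26022079), in prage (X, 1806357 to 1807618), and between genes at 15283 bp from Cnx99A (3R, 29334265 to 29335589) and 14865 bp from CG11041 (2R, 20161056 to 20162322). The CG11041 site was 51969 bp from the nearest mock CP190 peak. The second site with Mod(mdg4) (X, 22373188 to 22374508) lay 70379 bp from CG14621, with Mod(mdg4) in mock cells only and Isha in both treatments.

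Su(Hw) and CP190 were called together only after knockdown at 718 bp from Not1, the scaffold gene of the CCR4-NOT deadenylase (2R, 9564514 to 9566343), and in ETHR, a peptide hormone receptor gene (3R, 21253333 to 21254708). The same held in pnt, an ETS factor gene of EGFR signalling (3R, 23314050 to 23315425). Sites at Tmtc3 (2R, 21128002 to 21128995) and next to the elongation factor gene eEF1alpha2 (3R, 31737892 to 31738849) overlapped knockdown but not mock Su(Hw). At these 2 the knockdown Su(Hw) peak reached outside the CP190 site, and mock Su(Hw) beside the site was not counted. The sites at pnt, Tmtc3 and eEF1alpha2 also overlapped an Isha peak, in mock cells alone. At pnt and eEF1alpha2 that Isha peak ended (23314234 and 31737978) before the knockdown Su(Hw) peak began (23314323 and 31738437). A mock CP190 peak lay 291 bp from the site in ETHR and 686 bp from the one at eEF1alpha2. The knockdown Su(Hw) peak at eEF1alpha2 (31738437 to 31740417) also spanned that mock CP190 peak (31739536 to 31740258). The widest sites with none of the 3 proteins, after the one in EcR, were in CG45088 (2R, 13584788 to 13586861), in Sarm, an adaptor gene of axon degeneration (3L, 8063555 to 8065501), in the aldehyde oxidase gene AOX3 (3R, 15546996 to 15548878) and 1106 bp from the TFIID subunit gene Taf3 (4, 457958 to 459605).

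The new sites were spread over all arms and were a larger share of the knockdown list on X. There they were 224 of 1631 peaks (13.7%, 12.1 to 15.5%), against 740 of 7249 on the autosomes (10.2%), a difference of 3.53 points (1.79 to 5.41). The difference had the same sign in each width class: 45.8% against 37.8% under 750 bp, 13.7% against 9.56% in the middle class, and 3.98% against 1.60% from 1.25 kb, with intervals above 0 (0.778 to 15.4, 1.62 to 7.04 and 1.06 to 4.14 points). Arm 3L had the lowest share, 8.73% (7.48 to 10.2%), and the most peaks called in mock cells alone. These were 136 of its 1660 mock peaks (8.19%), against 78 of 1446 (5.39%) on X and 4 of 45 (8.89%) on chromosome 4. Mock Isha was at 41.1% of the new sites on X and at 23.3% of those on 3L, and mock Su(Hw) at 16.5% and 17.3%. In the other lists the share of knockdown-only peaks on X and off it was 5.83% and 4.43% for Su(Hw), 3.30% and 4.72% for Isha, and 28 of 216 and 91 of 875 peaks for Mod(mdg4), each with an interval of the difference that includes 0. Whether the CP190 difference varies between replicates cannot be read from the lists.

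**Figure D4:**
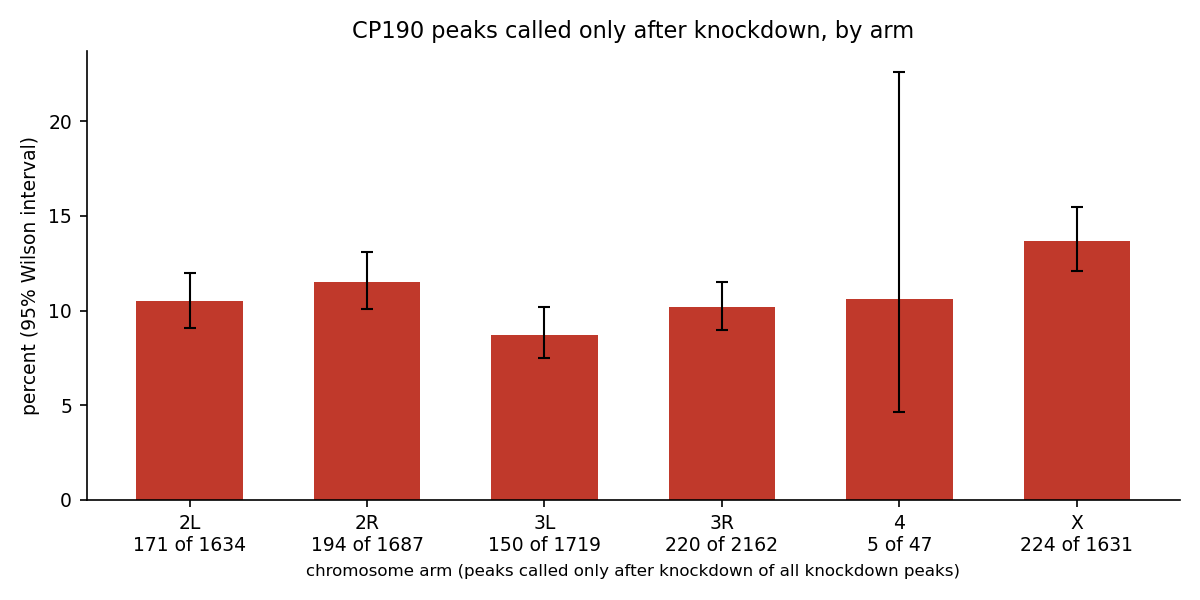
Share of knockdown CP190 peaks that had no mock CP190 peak (y axis, percent, whiskers 95% Wilson intervals) on each chromosome arm (x axis, with counts). X has the highest share, 13.7%, and 3L the lowest, 8.73%.

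At the level of genes, 1180 of 13922 protein-coding genes (percent called 8.48) had a new CP190 site within 1000 bp. For 644 of them a mock CP190 peak already lay within the same window, and 536 (percent called 3.85 of all genes) acquired their first one. In the other direction, 8488 genes had mock CP190 within the window. Of these, 516 had a CP190 peak called only in mock cells there, and 266 had none after knockdown. Peaks called only in mock cells numbered 507, against 964 new sites. A further 102 new sites were within 1000 bp of no protein-coding gene. Long genes had them more often, at 16.1% of genes of 5000 bp and longer against 3.56% of genes under 1179 bp. A first CP190 peak was at 3.94% and 2.61% of these genes.

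Most genes had 1 new site, and 10 genes had 4 or more. The gene ush, which encodes a cofactor of GATA factors in blood cells (2L, 476220 to 540560), had 7, at 477211, 484386, 510608, 519232, 522737, 524426 and 525995 on 2L, counting each by its first base. Within 1000 bp of ush, mock cells had 6 CP190 and 19 Isha peaks, and after knockdown 11 CP190 and 6 Isha peaks. The 3 new sites at 477211, 524426 and 525995 overlapped mock Isha, and none of the 7 overlapped Isha after knockdown. The site at 524426 to 525424 also had a mock Su(Hw) peak that was not called after knockdown. The gene eIF5B had 5 new sites, 2 of them with mock Isha, and its CP190 peaks numbered 4 in mock cells and 9 after knockdown.

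**Figure D5:**
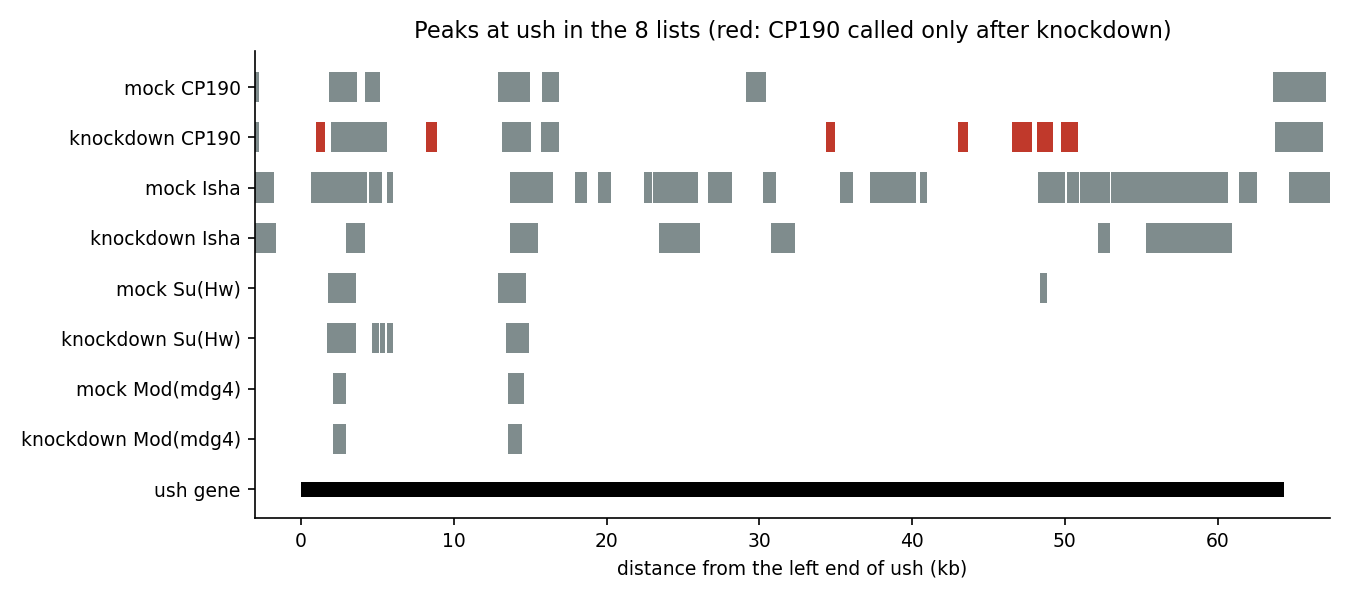
Peaks of the 8 lists (rows) along the gene ush, by distance from its left end in kb (x axis); red bars are the 7 CP190 peaks called only after knockdown, grey bars all other peaks. Of the 7 red bars 3 overlap a mock Isha peak and none a knockdown one, and 4 lie close together in the right part of the gene.

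The genes with 4 new sites were EcR, the BTB zinc finger gene chinmo, heca, hth, which encodes a homeodomain cofactor of Hox proteins, the adhesion gene kirre, the KLF factor gene luna, and the overlapping pair CG46467 and Glut4EF, which share the same 4. Partners differed between them. None of the 4 sites at hth, chinmo or Glut4EF had Isha, and those genes had no Isha peak in either treatment. In luna 3 of 4 sites had Su(Hw) in both treatments. In EcR, where CP190 peaks numbered 8 in mock cells and 13 after knockdown, 3 of 4 had no other protein and the one at 6161634 to 6163122 had Su(Hw) in mock cells only.

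Some new CP190 sites stood in runs, though most stood alone. Counting sites at most 5000 bp apart as a run, 780 stood alone, and 78 pairs and 8 longer runs held the rest. Without a like count for other CP190 peaks, these numbers do not show that new sites cluster more than those. The longest run had 5 sites on X between 5311648 and 5330209, at dhd, which encodes a germline thioredoxin, CG15930, the splicing factor gene Rnp4F, the replicative helicase gene Mcm3 and the DNA repair gene XRCC1. Their midpoints lay 26, 14, 21, 34 and 240 bp from a gene end. All 5 had mock Isha, and the one at CG15930 kept it.

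Gene groups were described by counts, with no set test, beside the 8.48% of all genes with a new site and the 3.85% whose first CP190 peak it was. Since long genes had a new site more often, counts for genes of 5000 bp or longer are also given for most groups. Among ecdysone genes 7 of 18 had one, among them EcR and the early response genes Eip74EF, Eip75B, Eip78C and br, with 6 of the 14 ecdysone genes of 5000 bp or longer against 562 of 3481 such genes overall. A mock CP190 peak was already at all but 1 of the 7. The sites at Eip74EF, Eip75B and Eip78C had none of the other 3 proteins, and 1 of the 2 at br had mock Isha. Among Polycomb and trithorax group genes 8 of 29 had one: the PRC1 subunit genes ph-p and Sce already had mock CP190, and Psc, another subunit gene of that complex, had its first. The sites at Sce and at the methyltransferase gene ash1 had mock Isha, and those at ph-p, Psc and the chromatin remodeller gene osa had none of the 3 proteins.

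Shares for groups of signalling genes ran from 4 of 27 (14.8%) for Toll and Imd to 4 of 12 (33.3%) for JAK-STAT. Among signalling genes of 5000 bp or longer, 6 of 20 for Wnt, Notch and Hedgehog and 6 of 20 for EGFR and Ras had a new site. It was 4 of 9 for JAK-STAT and 1 of 9 for Toll and Imd. Among genes of Wnt, Notch and Hedgehog signalling 8 of 29 had a new site, including the receptor genes fz2 and N, dsh, sgg, mam and the glycosyltransferase gene fng, where it was the first CP190 peak. Among EGFR and Ras pathway genes it was 6 of 24: the antagonist gene sty, S, the exchange factor gene Sos, Raf, pnt and Ets21C, with 3 sites each at Raf and pnt. The sites at sty and Sos had mock Isha, and none of those at Raf had any of the 3 proteins. Among JAK-STAT genes it was 4 of 12: the cytokine gene upd3, the transcription factor gene Stat92E, Su(var)2-10 and the repressor gene ken. Among Toll and Imd genes it was 4 of 27, with first CP190 peaks at the kinase gene pll and at PGRP-SD, and further sites at the NF-kappaB gene Dif and at imd.

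Ribosomal protein and germline genes had shares below that of all genes, and the other groups shares above it. For heat shock and for cell cycle genes it was 10.0%, near the 8.48% of all genes. Among genes of 5000 bp or longer, Hox and segmentation genes had 2 of 13 and insulator genes 2 of 12, near the 562 of 3481 of all genes. It was 6 of 28 for neuronal, 3 of 9 for blood cell, 7 of 19 for Polycomb and trithorax and 0 of 7 for germline genes. These groups are small and no difference was tested. Of 84 ribosomal protein genes, 80 had a mock CP190 peak and 4 had a new site: RpS13, RpL12, RpL39 and RpL14, the last 3 at mock Isha. Cell cycle and replication genes had 3 of 30 (E2f1, Orc5 and Mcm3), heat shock and chaperone genes 2 of 20 (Hsp70Ba, whose reads may be shared with its near-identical copies, and Hsp60A), and germline genes 0 of 17. Of 30 insulator and architectural protein genes, 4 had a new site: shep, Trl, which encodes GAGA factor, and, as first CP190 peaks, dwg, the gene of the insulator protein Zw5, and M1BP, which encodes a promoter-binding zinc finger protein. The sites at Trl, dwg and M1BP had mock Isha, and the one at shep had none of the 3 proteins. Hox and segmentation genes had 3 of 26 (Dfd, and first peaks at wg and hry, with none of the other proteins at any of the 3), blood cell genes 3 of 18 (srp, which encodes a GATA factor, ush and Pxn), and neuronal and synaptic genes 6 of 31, all of which, Snap25, ChAT, VAChT, unc-13, sli and Sema1a, already had mock CP190. ChAT and VAChT overlap, so their site is the same.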

How the data were processed

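The deposited files used here are 8 lists of peak positions, without scores, counts or replicate columns: depth is unknown. Per the submitters' processing notes, Bowtie2 2.4.1, SAMtools 1.9, Picard 2.22.2 and the build dm6 were used; the sources used here name no peak caller or threshold, nor how the replicates were joined. Lists were assigned by their names, with "SwHw" taken to mean Su(Hw). Peaks on 2L, 2R, 3L, 3R, 4 and X were kept, counted from 1, and shared means at least 1 bp in common. Genes are the 13922 protein-coding genes of RefSeq (Release 6 plus ISO1 MT), read from a table without strand. Of the listed gene symbols, 8 were left out because they fitted no gene or several. Among them were Dl of the Wnt, Notch and Hedgehog group and nos of the germline group. Shares have Wilson and differences Newcombe intervals at 95%. The members, gene lists and tests were chosen with earlier results of these data known. Named sites are the widest overall (15), the widest 5 per partner class, the 3 nearest to each side of the rule, the genes with most sites (all ties given), and up to 6 genes per group in list order. One of the widest sites is not reported here. Genes in the longest run were named after their values were seen. Promoter motifs and sequences are not shown, since no genome sequence was used here. Code was tested on simulated lists. Python 3.11.15, NumPy 2.4.6, pandas 2.3.3 and matplotlib 3.10.9 were used.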

Additional observations from a re-analysis of the deposited data

How the results depend on the processing

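No paired analysis was possible because each list joins both replicates; for the same reason no replicate could be left out, and without scores no stricter threshold could be tried. The number of new sites was 1497 when a shared peak needed 50% reciprocal overlap and 1905 with midpoints within 250 bp, against 964. With 50% reciprocal overlap of partner peaks, the shares were 8.82% for mock and 2.39% for knockdown Isha, 11.6% and 14.8% for Su(Hw), and 74.3% for none of the proteins. With midpoints within 250 bp they were 10.5% and 2.18% for Isha, 16.0% for mock Su(Hw) and 70.3% for none. With partner edges within 500 bp, mock Isha was at 36.5% and none at 41.3%. Among sites at least as wide as the median, whose own median width was 950.5 bp, mock Isha was at 47.9%, knockdown Isha at 11.8%, Su(Hw) at 14.5% in each treatment, none at 36.9%, gene ends at 57.5%, gene bodies at 52.9% (against 58.7%) and a mock CP190 peak within 1000 bp at 11.4% (against 14.9%). The gene-end share was 36.5% with a window of 250 bp and 47.7% with 1000 bp. A mock CP190 peak was within 500 bp for 8.40% and within 5000 bp for 56.7%, and within 1000 bp for 7.13% of the sites at least 500 bp from any. Without chromosome 4 and the 2 Mb next to each centromere, mock Mod(mdg4) was at 0%.

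The differences from CP190 peaks of both treatments kept their sign for Su(Hw), Mod(mdg4) and for none of the proteins in every width class and overlap definition tried, although the interval for knockdown Mod(mdg4) under 750 bp (-0.840 points) includes 0. For Isha they did not. The mock difference of -6.72 points was -1.13 points under 750 bp and -0.880 with midpoints within 250 bp, and it turned to 3.09 and 15.3 points in the wider classes. The knockdown difference of -2.52 points was -0.948 and -0.828 points, and turned to 1.37 and 3.19. The cause was not tested.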

Other observations

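Genes of small RNAs were at low shares of both new and other CP190 sites. A tRNA gene overlapped 10 of the 964 (1.04%), against 0.758% of CP190 peaks of both treatments and 1 of 507 of those called only in mock cells. A snoRNA gene overlapped 3 (0.311%, against 0.442%) and a miRNA gene 2 (0.207%, against 0.404%). No snRNA gene did, with a Wilson upper bound of 0.397%, against 15 of 7916 CP190 peaks of both treatments. A long noncoding RNA gene overlapped 4.88% of the new sites (3.69 to 6.42%) and 4.75% of the sites of both treatments.

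Within 2 Mb of the centromere end of the arms 2L, 2R, 3L, 3R and X, 7 of 121 knockdown CP190 peaks were new sites (5.79%, Wilson interval 2.83 to 11.5%, against 10.9% over all arms). On chromosome 4 it was 5 of 47 (10.6%).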
